A study of Mus musculus with 2 samples.

Results

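The BCL2 family sets whether a cell keeps or opens the outer membrane of its mitochondria, the step that commits it to apoptosis. Anti-apoptotic members (*Bcl2*, *Bcl2l1*, *Mcl1*) hold the pore-forming members (*Bax*, *Bak1*) inactive. BH3-only members (*Bcl2l11*, *Bbc3*, *Bid*, *Bad*, *Bmf*) signal stress by binding either group through a short helix, the BH3 motif. Microglia, the macrophages of nervous tissue, clear dying neurons during retinal development and depend on survival signals of their own.

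These 10 genes were chosen by name, 3 anti-apoptotic, 2 pore-forming and 5 BH3-only, and all 10 were among the 13549 genes listed in the deposited count table. Each had at least 20 reads over both libraries, the minimum used for ratios below.

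Bulk RNA sequencing was run on microglia sorted from the retina of mice on postnatal day 5. All animals had the genotype CD11c-Cre-gfp;Rosa-TDTom, in which the promoter of the integrin subunit CD11c drives Cre with GFP and Cre permanently switches on a TdTomato reporter. The Cd11c-active library came from 4041 cells with both colours, which were using the promoter when sorted. The Cd11c-lineage library came from 5441 cells with TdTomato but no GFP, which would have used it earlier. Each library was made from a pool of 8 retinas (4 female and 4 male), with no further treatment named and no strain given. With 1 library per population there was no replicate check, no p-value is given, and every comparison below is one of 2 libraries and not of 2 conditions. In bulk samples, fewer cells of a type and less RNA per cell cannot be told apart.

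The BH3 motif is what relates the 10 proteins, so the coding stretches that hold its core are shown first. The pattern searched was a leucine codon, any 3 codons, a glycine, alanine or serine codon, an aspartate codon, and then a codon for aspartate, glutamate, glutamine or glycine. It was found exactly 1 time in the main coding sequence of each of the 10 genes (GENCODE M21, GRCm38). Every residue it allows beside aspartate is carried by at least 1 of the 10 genes, so a match in all of them was not a test. Each line below gives 45 coding bases, 5′ to 3′, with 3 capitals for the leucine codon and 6 capitals for the codon pair that ends in aspartate, for 7 members that differ in role or at that pair.
Mcl1: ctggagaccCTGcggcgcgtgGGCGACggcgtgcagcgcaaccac
Bcl2l1: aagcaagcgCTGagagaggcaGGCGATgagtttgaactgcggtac
Bax: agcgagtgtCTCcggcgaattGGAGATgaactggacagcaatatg
Bcl2l11: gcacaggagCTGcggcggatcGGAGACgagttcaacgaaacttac
Bbc3: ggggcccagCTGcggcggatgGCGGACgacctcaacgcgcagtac
Bad: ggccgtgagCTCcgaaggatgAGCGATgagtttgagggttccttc
Bmf: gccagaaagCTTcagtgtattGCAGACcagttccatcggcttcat

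The codon before aspartate encoded glycine in 7 members, alanine in *Bbc3* and *Bmf*, and serine in *Bad*. All 3 exceptions are BH3-only genes, whereas *Bcl2l11* and *Bid* carry the glycine codon of the anti-apoptotic and pore-forming members. Among all pairs, *Bcl2l11* and *Bbc3* were the most alike over these bases, with 29 of 45 identical (64.4%). In GRCm38 the stretches lie in coding exons. That of *Mcl1* is in exon 1 on the plus strand (chr3:95659427-95659471) and that of *Bcl2l1* in exon 2 on the minus strand (chr2:152829688-152829732). That of *Bax* is in exon 3 on the minus strand (chr7:45465988-45466032) and that of *Bcl2l11* in exon 3 on the plus strand (chr2:128147141-128147185). That of *Bbc3* is in exon 3 on the plus strand (chr7:16313764-16313808). Those of *Bad* (exon 3, plus strand, chr19:6950783-6950827) and *Bmf* (exon 4, minus strand, chr2:118545091-118545135) complete the set. Gene counts do not separate splice forms, so forms with and without a given motif are summed in all values below.

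The libraries held 12943998 (Cd11c-active) and 13402625 (Cd11c-lineage) reads, of which the 10 members took 0.144% and 0.166%. All 8 microglial markers were present, from *Aif1* with 4142 and 4787 reads, the lowest sum, to *Csf1r* with 79075 and 92452, and 0 of the 8 were past 2-fold, as is usual at their abundance (2.38% and 1.31% of genes in their 2 ranges of reads were). Markers of other cell types are given by their reads and by the widened 95% interval, defined below, of the log2 ratio of their sum. All 8 endothelial markers were past 2-fold higher in Cd11c-active, with 7974 against 1035 summed reads and 5 of them at 0 reads in Cd11c-lineage (widened 2.28 to 4.11). The 8 listed of 10 retinal neuron markers summed to 1586 against 3385 reads, with *Pdc* at 0 in Cd11c-active and *Rbpms* the other way at 325 against 126 (widened -1.76 to -0.10). Of these, 4 were past 2-fold lower and 1 higher, where 44.9% of all genes were past 2-fold. The 4 listed of 6 border macrophage markers summed to 262 against 1794, with 3 at 0 in Cd11c-active (widened -4.85 to -0.91). The 3 listed of 5 Muller glia and astrocyte markers summed to 27940 against 33935 reads, nearly all of it *Glul*. The other two went opposite ways, *Slc1a3* with 73 against 642 reads and *Rlbp1* with 94 against 0, and the widened interval of the sum (-0.45 to 0.26) included 0. The 4 listed monocyte and neutrophil markers summed to 35 against 239 reads, with 3 at 0 in Cd11c-active and *Ccr2* at 35 against 0, and here too the widened interval (-14.3 to 1.88) included 0. *Hbb-bt*, the 1 listed of 5 erythroid markers, had 0 against 31. Of all genes with 20 to 49, 50 to 99 and 100 to 199 reads, 87.5%, 71.0% and 37.9% were at 0 in 1 of the libraries. The part of these cells in the values below was not tested.

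After TMM scaling of library sizes, each ratio sets Cd11c-active over Cd11c-lineage on the log2 scale, with an exact 95% counting interval and a widened one. The widened interval divides the reads by the overdispersion, the factor by which the log2 ratios of genes of like abundance spread beyond counting error, which was 80.2 for genes with 800 to under 1600 reads over both libraries and 234 for the most abundant genes. A difference is called past 2-fold at an absolute log2 ratio of at least 1. Of the 13037 genes with at least 20 reads, 23.3% were past 2-fold higher and 21.6% past 2-fold lower in Cd11c-active, 44.9% in all. Among the 10 members 1 was past 2-fold higher (*Bbc3*) and 1 lower (*Bid*). The widened interval excluded 0 for 0 of the 10 members, against 1.97% of all tested genes. The median ratio of the members was -0.01, beside 0.01 for all tested genes.

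**Figure D1:**
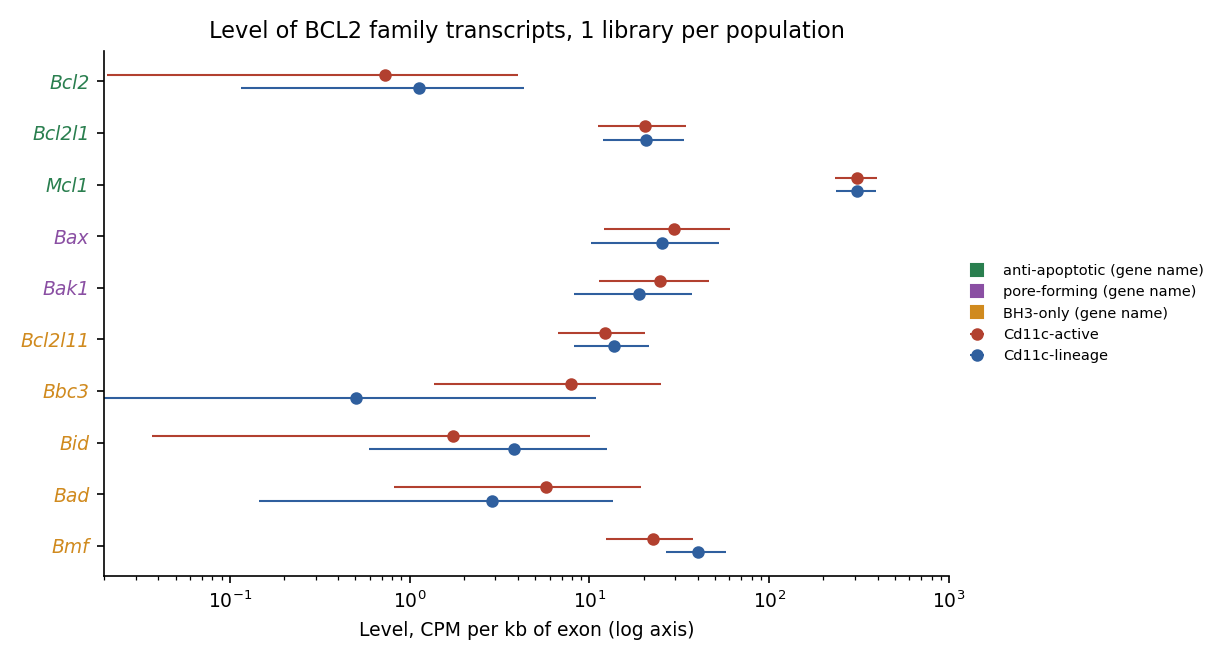
Level of each member in CPM (reads scaled to library size) per kilobase of exon, on a log axis, in Cd11c-active (red) and Cd11c-lineage (blue); bars are 95% intervals from reads divided by the overdispersion, some running off the left edge, and gene names are coloured by role. *Mcl1* stands near 307 in both libraries and no other member exceeds 40.1.

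*Mcl1* was the most abundant member in both libraries by far. Its product is a short-lived survival protein that must be remade continually. It had 12941 reads in Cd11c-active against 14704 in Cd11c-lineage, which is 307 and 306 CPM per kilobase. This was 71.0% and 70.6% of the summed per-length level of the 10 members. The log2 ratio of *Mcl1* was 0.00 (counting interval -0.03 to 0.04; widened -0.55 to 0.55), a difference within counting error, and 2.38% of genes of its abundance were past 2-fold. Its level was 10.4-fold that of the next member in Cd11c-active, *Bax*, and 7.64-fold that of the next in Cd11c-lineage, *Bmf*. These 2 steps were the only ones between neighbours in either order whose widened interval excluded equal levels.

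*Bcl2l1*, which encodes BCL-XL, another survival protein, had 1155 and 1335 reads, or 20.4 and 20.7 CPM per kilobase. Its log2 ratio was -0.02 (counting -0.14 to 0.09; widened -1.18 to 1.11), within counting error under TMM scaling. It was -0.16 by library totals and -0.24 with the trend of the ratio with transcript length and GC content removed. *Mcl1* stood 15.0-fold above *Bcl2l1* per length in Cd11c-active and 14.8-fold above it in Cd11c-lineage. *Bcl2*, the founding member of the family, had 83 and 145 reads and the lowest per-length level of the 10 in Cd11c-active, 0.734 against 1.13 CPM per kilobase in Cd11c-lineage. The log2 ratio of *Bcl2* was -0.61 (counting -1.02 to -0.22; widened -6.40 to 3.82). Of genes with 200 to 399 reads over both libraries, as *Bcl2* has, 56.6% were past 2-fold and 10.1% were at 0 in 1 of the libraries, so a difference of that size is common there.

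The pore-forming members were both expressed at moderate levels. *Bax*, whose product moves from the cytosol to mitochondria when activated, had 573 reads in Cd11c-active against 563 in Cd11c-lineage (29.4 and 25.4 CPM per kilobase). *Bak1*, whose product resides in the mitochondrial outer membrane, had 731 and 642 reads (24.6 and 19.0 CPM per kilobase). Both were slightly higher in Cd11c-active beyond counting error, with log2 ratios of 0.21 for *Bax* (counting 0.04 to 0.38) and 0.37 for *Bak1* (counting 0.22 to 0.53). The widened intervals of *Bax* (-1.51 to 1.94) and *Bak1* (-1.17 to 1.94) included 0, and 21.7% of genes with 800 to under 1600 reads were past 2-fold. After removal of the trend of the ratio with transcript length and GC content, *Bax* had a ratio of -0.33 and *Bak1* of 0.12. Per length, *Bax* stood 1.20-fold above *Bak1* in Cd11c-active and 1.34-fold in Cd11c-lineage, a difference of -0.16 on the log2 scale that was within counting error (-0.39 to 0.07).

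**Figure D2:**
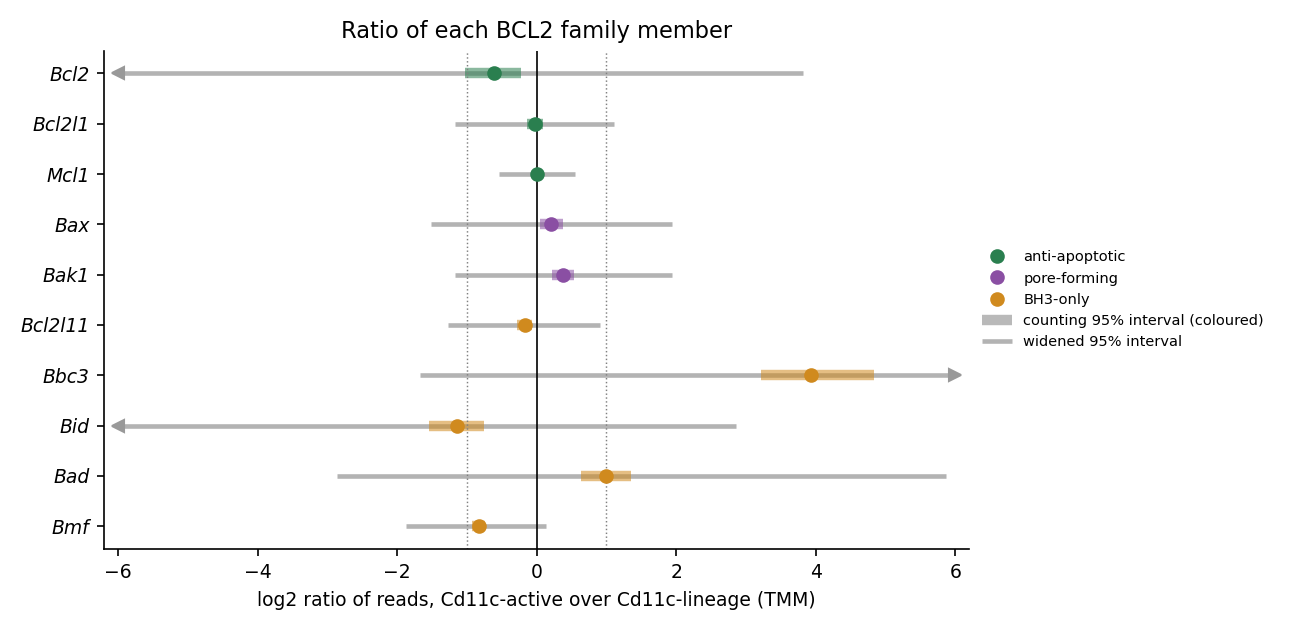
Log2 ratio of reads, Cd11c-active over Cd11c-lineage, for each member, coloured by role; thick coloured bars are counting and grey bars widened 95% intervals, arrows mark intervals that run beyond the axis, and dotted lines mark 2-fold. Every widened interval crosses 0, and that of *Bmf*, from -1.87 to 0.14, does so by the least.

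The BH3-only members had the widest range of ratios, from -1.14 to 3.93. *Bmf*, whose product is tethered to the cytoskeleton through a dynein light chain until released, had 1460 reads in Cd11c-active against 2958 in Cd11c-lineage. Per length this was 22.5 and 40.1 CPM per kilobase, which placed *Bmf* below *Mcl1*, *Bax* and *Bak1* in Cd11c-active and directly below *Mcl1* in Cd11c-lineage. The level was thus 1.78-fold higher in Cd11c-lineage, a log2 ratio of -0.83 (counting -0.92 to -0.74; widened -1.87 to 0.14). Of genes with 3200 to 6399 reads, 3.28% were past 2-fold and the median absolute log2 ratio was 0.30. The ratio of *Bmf* lay between -0.97 and -0.83 over 5 alternative settings. For it the authors' deposited table lists a log2 fold change of -0.97. That value is the ratio of the same reads by library totals, 1 of the 5 settings, and is no outside check. No exon of another gene overlaps those of *Bmf* in GENCODE M21.

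*Bcl2l11*, which encodes BIM, a BH3-only protein that binds every anti-apoptotic member and activates *Bax* and *Bak1* products, had 1205 and 1547 reads. Its per-length levels were 12.2 and 13.7 CPM per kilobase, rank 6 of the 10 in both libraries. The log2 ratio of *Bcl2l11* was -0.17 (counting -0.28 to -0.06; widened -1.28 to 0.90), slightly lower in Cd11c-active, and 8.94% of genes with 1600 to under 3200 reads were past 2-fold. *Bmf* and *Bcl2l11* together made most of the BH3-only reads in both libraries.

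*Bbc3*, which encodes PUMA, a target gene of the tumour suppressor p53, had 207 reads in Cd11c-active against 15 in Cd11c-lineage, which is 7.89 and 0.503 CPM per kilobase. It ranked last of the 10 in Cd11c-lineage and 7 of 10 in Cd11c-active. The log2 ratio of 3.93 (counting 3.22 to 4.84) was the largest of the 10, but the widened interval ran from -1.67 to 30.9, with 222 reads over both libraries. For *Bbc3* the authors' deposited table lists a log2 fold change of 3.83, which comes from the same reads and is no outside check. Past 2-fold higher in Cd11c-active were 27.1% of genes with 200 to 399 reads.

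*Bid*, whose product is cut by the initiator caspase of death receptors, had 76 and 191 reads (1.73 and 3.83 CPM per kilobase), and its log2 ratio was -1.14 (counting -1.55 to -0.75; widened -7.19 to 2.86). It was past 2-fold lower in Cd11c-active, as were 29.5% of genes with 200 to 399 reads. *Bad*, whose product is held in the cytosol when growth factor signalling phosphorylates it, had 180 and 103 reads (5.70 and 2.87 CPM per kilobase), and its log2 ratio was 0.99 (counting 0.63 to 1.36; widened -2.87 to 5.87), just short of 2-fold. Both overlap another gene on the opposite strand. *Bid* shares 628 exon bases (17.7% of its own) with *Bcl2l13*, which had 745 and 651 reads, and *Bad* shares 524 (20.5%) with *Gpr137*, which had 590 and 380. The use of strand in counting is not given in the sources used here, so reads of these stretches cannot be told apart. On the opposite strand *Bcl2* also overlaps *D630008O14Rik* (558 bases, 6.09%), and *Bak1* overlaps 2 entries named *Ggnbp1* (437 bases, 18.2%, and 177 bases, 7.35%). On its own strand *Bax* overlaps *Gm45808* (192 bases, 12.2%). No reads of these overlapping genes were analysed here.

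**Figure D3:**
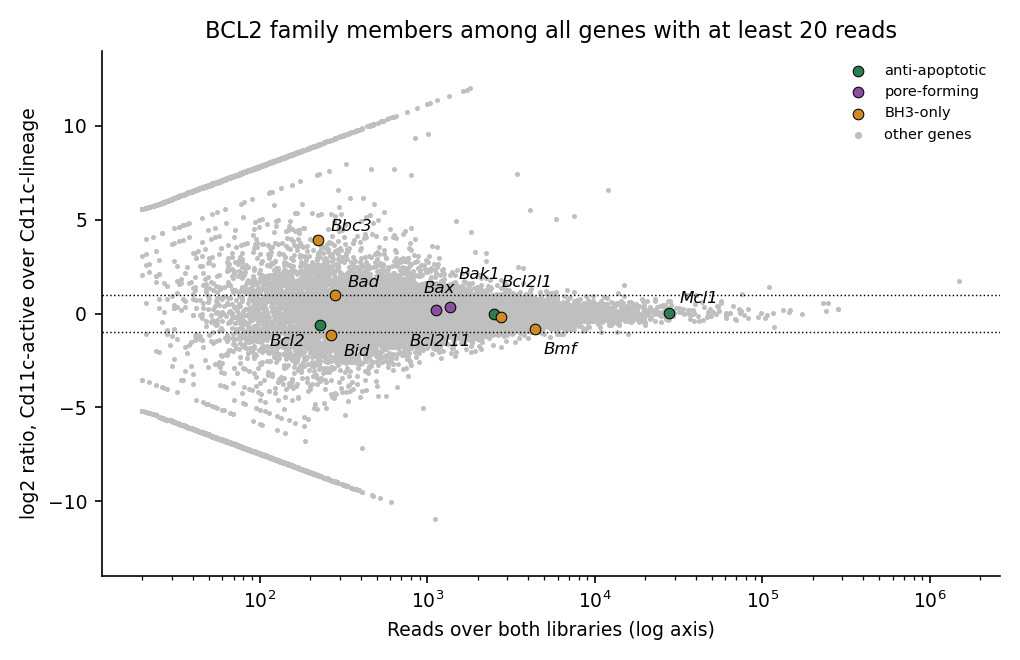
Log2 ratio of each gene, Cd11c-active over Cd11c-lineage, against its reads over both libraries on a log axis; grey points are all genes with at least 20 reads, coloured points the members by role, and dotted lines mark 2-fold. The lines of points at the upper and lower edge are genes with 0 reads in 1 of the libraries, and the 4 members under 400 reads lie where 56.6% of genes are past 2-fold.

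Summed by role, the anti-apoptotic members had 14179 and 16184 reads, and their log2 ratio was 0.00 (counting -0.04 to 0.03; widened -0.51 to 0.50). The pore-forming members had 1304 and 1205 reads, a ratio of 0.30 (counting 0.19 to 0.41; widened -0.80 to 1.42). The BH3-only members had 3128 and 4814 reads, a ratio of -0.44 (counting -0.50 to -0.37; widened -1.11 to 0.22). So survival transcripts were level, pore-forming ones slightly higher and BH3-only ones lower in Cd11c-active, with both differences beyond counting error but with widened intervals that include 0. With the trend with length and GC removed from each member, the pore-forming sum turned to -0.08 and the BH3-only sum was -0.48. The BH3-only difference rested on *Bmf*, and without it the sum gave 0.03 (counting -0.06 to 0.13). Without *Bbc3*, which was higher in Cd11c-active, it was -0.53.

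The balance of roles was taken within each library as the ratio of summed per-length levels, which does not depend on the scaling of libraries. Anti-apoptotic transcripts stood 3.15-fold above pore-forming and BH3-only ones together in Cd11c-active and 3.11-fold in Cd11c-lineage. The difference of 0.02 on the log2 scale was within counting error (-0.06 to 0.09; widened -0.76 to 0.79). Anti-apoptotic over pore-forming was 6.07-fold in Cd11c-active and 7.39-fold in Cd11c-lineage, a log2 difference of -0.28 (counting -0.40 to -0.16; widened -1.43 to 0.86). Anti-apoptotic over BH3-only was 6.56-fold and 5.38-fold, a difference of 0.29 (counting 0.21 to 0.36; widened -0.55 to 1.12). These differences had opposite signs, but with the length and GC trend removed both were positive, at 0.10 against pore-forming and 0.37 against BH3-only.

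BH3-only transcripts stood 0.925-fold relative to pore-forming ones in Cd11c-active and 1.37-fold in Cd11c-lineage, a difference of -0.57 (counting -0.71 to -0.43; widened -1.80 to 0.66). With the length and GC trend removed it was -0.27. The near-equal balance depended on which members were summed and on the processing. Without *Bmf* it was 4.02-fold in Cd11c-active and 5.02-fold in Cd11c-lineage, a difference of -0.32 (counting -0.41 to -0.23; widened -1.23 to 0.59). With unscaled reads in place of per-length levels the difference was 0.25, and with the length and GC trend removed it was also 0.25. Within the genes summed, the excess of anti-apoptotic transcript was that of *Mcl1*. Without it, *Bcl2* and *Bcl2l1* reached 0.203-fold (Cd11c-active) and 0.207-fold (Cd11c-lineage) of the pro-apoptotic level. These values depend on the choice of genes. The survival gene *Bcl2a1b* and its copies, left out here, had 85.5 and 84.5 CPM per kilobase together. The BH3-only gene *Pmaip1*, also left out, had 26.6 and 33.3.

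**Figure D4:**
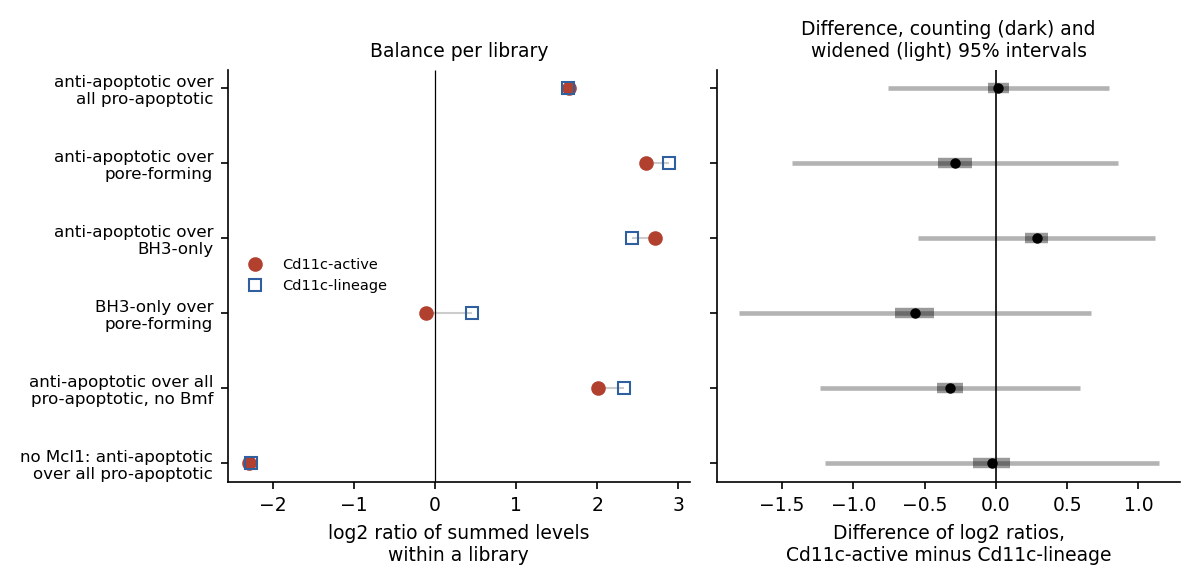
Left, log2 ratio of summed per-length levels between roles within Cd11c-active (filled circles) and Cd11c-lineage (open squares); right, the difference of these ratios with counting (dark) and widened (light) 95% intervals. The overall balance coincides in the libraries at 1.66 and 1.64, and all widened intervals of the differences include 0.

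Other members of the family and genes of the pathway were taken from 5 lists. Of their 65 genes 60 were listed and 59 had at least 20 reads. Of these 59, 5 were past 2-fold higher and 5 lower in Cd11c-active. The 44.9% of all tested genes past 2-fold is not matched to their abundance. That share falls with reads, from 74.6% of genes with 100 to 199 reads to 3.28% of those with 3200 to 6399. A matched share for the 59 genes was not computed, so the 2 shares are not compared. The widened interval excluded 0 for 2 of the 59, beside 1.97% of all tested genes. For each list the 4 genes with the most reads are named here, with any gene of at least 400 reads past 2-fold.

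Of 11 other BCL2 family genes tested, 2 were past 2-fold higher and 0 lower, with a median log2 ratio of 0.38. The 2 were *Bcl2l12* (175 and 0 reads) and *Bik* (78 and 0), named after their values were seen, as were *Casp6*, *Endog*, *Fas* and *Tnfrsf10b* below. Of genes with 100 to 199 reads 37.9% were at 0 in 1 of the libraries, and of genes with 50 to 99 reads 71.0%. The survival gene *Bcl2a1b* had 676 and 784 reads, with a ratio of -0.03 (widened -1.55 to 1.46). Its near-identical copies *Bcl2a1a* and *Bcl2a1d* may share reads with it. Together the 3 copies had 867 and 976 reads, 85.5 and 84.5 CPM per kilobase, which lies between *Mcl1* and every other member described above. *Bnip3l*, a mitophagy receptor, had 1675 and 1419 reads, with a ratio of 0.43 (widened -0.58 to 1.45). *Becn1*, an autophagy protein with a BH3 motif, had 1153 and 1692 reads (-0.37, widened -1.47 to 0.69). *Pmaip1*, which encodes NOXA, the BH3-only partner of the *Mcl1* product, had 897 and 1280 reads (-0.33, widened -1.60 to 0.90).

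Downstream, of 15 apoptosome, caspase and mitochondrial channel genes 1 was past 2-fold higher (*Casp6*, 96 and 8 reads) and 1 lower (*Endog*, 33 and 79), with a median of -0.01 and a ratio of 0.19 for their summed reads (widened -0.18 to 0.56). *Vdac2*, whose channel protein binds the *Bak1* product at mitochondria, had 3392 reads in Cd11c-active against 2057 in Cd11c-lineage. It was higher in Cd11c-active, with a ratio of 0.91 (counting 0.83 to 0.99) and a widened interval of 0.06 to 1.79. The lower bound is smaller than the 0.14 by which library totals lower all ratios, and with the length and GC trend removed the ratio was 0.82. Its paralog *Vdac1* had 1955 and 2125 reads, with a ratio of 0.07 (widened -0.92 to 1.04) that was -0.11 with the length and GC trend removed. *Casp8*, the initiator caspase that cuts the *Bid* product, had 1732 and 2195 reads (-0.16, widened -1.18 to 0.84). *Apaf1*, the scaffold of the apoptosome, had 763 and 1149 reads (-0.40, widened -1.79 to 0.91).

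Of 9 inhibitors of apoptosis 0 were past 2-fold higher and 1 lower, with a median of -0.33. The lower one was *Birc2*, a ubiquitin ligase, whose 172 and 532 reads gave a ratio of -1.44 (widened -4.61 to 0.93), in a range of reads where 39.2% of genes were past 2-fold. *Cflar*, which blocks the initiator caspase of death receptors, had 1868 and 3554 reads (-0.74, widened -1.65 to 0.12). *Xiap*, a direct caspase inhibitor, had 2157 and 1435 reads and went the other way (0.77, widened -0.28 to 1.87). With the length and GC trend removed its ratio was 1.14. *Birc6* (3450 and 5170 reads) had a ratio of -0.40 and *Naip2* (2907 reads in each library) of 0.19.

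Of 7 death receptor genes 1 was past 2-fold higher and 3 lower. Their median was -0.48, whereas their summed reads gave a ratio of the other sign, 0.16 (widened -0.50 to 0.83). The receptor *Tnfrsf1a* had 1995 and 1283 reads (0.82, widened -0.28 to 1.98), and its kinase *Ripk1* had 1102 and 1748 (-0.48, widened -1.60 to 0.58). The 3 lower genes were the adaptor *Fadd*, with 135 and 338 reads (-1.13, widened -4.98 to 1.74), and the receptors *Fas* (0 and 107 reads) and *Tnfrsf10b* (5 and 56). Of genes with as many reads as *Fadd*, *Fas* and *Tnfrsf10b*, 39.2%, 74.6% and 88.5% were past 2-fold. The necroptosis kinase *Ripk3* had 269 and 113 (1.43, widened -1.79 to 5.85), in the range where 56.6% were.

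Of 17 regulators of the members 1 was past 2-fold higher and 0 lower, with a median of -0.09. *Huwe1*, a ubiquitin ligase that marks the *Mcl1* product for degradation, had 3708 reads in Cd11c-active against 6975 in Cd11c-lineage. It was lower in Cd11c-active, with a ratio of -0.72 (counting -0.78 to -0.67), and the widened interval of -1.48 to -0.005 ended next to 0. With the length and GC trend removed it was -0.43. *Usp9x*, which removes such marks, had 4279 and 5725 reads (-0.23, widened -0.97 to 0.49), and its ratio was 0.18 with that trend removed.

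*Trp53*, which encodes p53, had 747 reads in Cd11c-active against 316 in Cd11c-lineage, a ratio of 1.43 (counting 1.24 to 1.62; widened -0.40 to 3.59). It was past 2-fold higher in Cd11c-active, as were 12.6% of genes with 800 to under 1600 reads. *Tmbim6*, an inhibitor of *Bax* action in the endoplasmic reticulum, had 13566 and 12151 reads (0.35, widened -0.22 to 0.91). *Ywhaz*, one of the proteins that hold phosphorylated *Bad* product in the cytosol, had 6648 and 8694 reads (-0.20, widened -0.96 to 0.54).

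**Figure D5:**
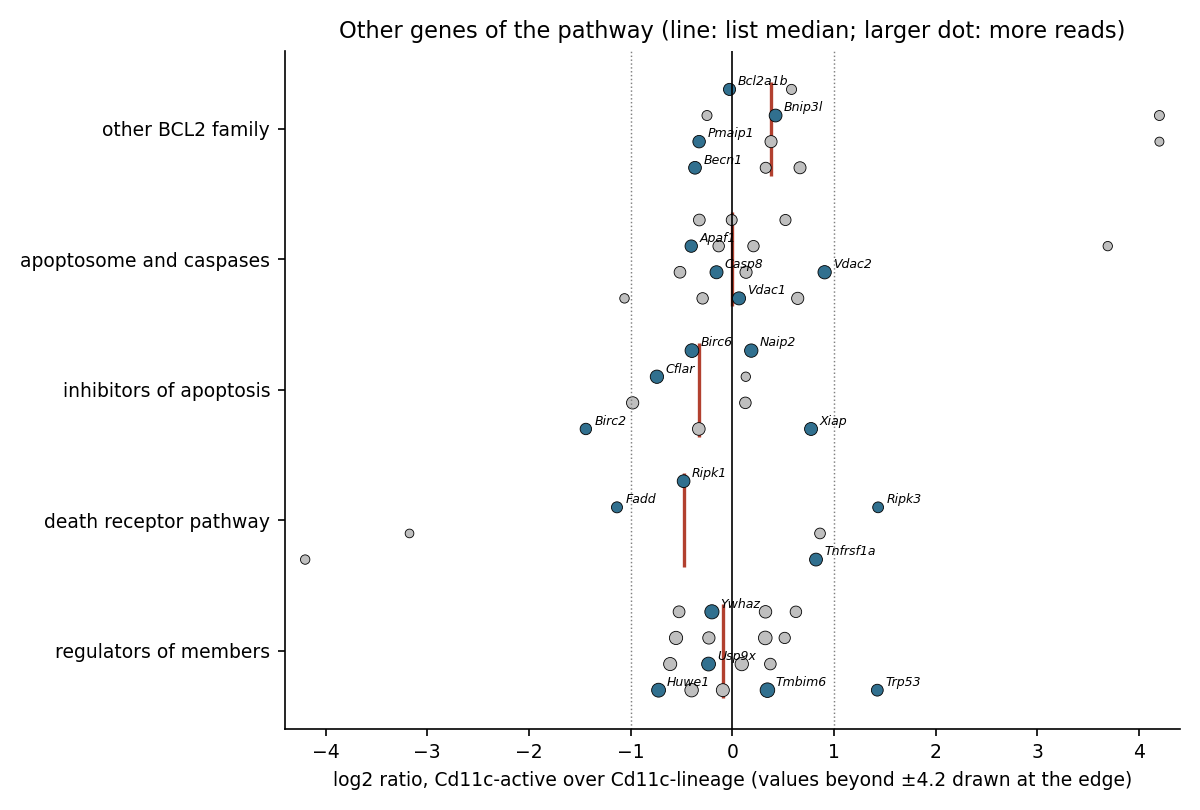
Log2 ratio, Cd11c-active over Cd11c-lineage, of genes with at least 20 reads in 5 lists of the pathway; blue points are the genes picked by that rule on reads, red lines are list medians, larger points have more reads, and dotted lines mark 2-fold. Most points lie within 2-fold, and *Trp53*, *Ripk3*, *Birc2* and *Fadd* are the blue points outside it.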

How the data were processed

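The deposited table holds unnormalised counts per gene in whole numbers, made by the authors, with a log2 fold change and log2 average CPM, of which the fold change is used only where named. Per the submitters' processing notes, cutadapt 3.5, STAR 2.7.9a, featureCounts 1.6.3, edgeR 4.0.16 and build GRCm39 were used. The annotation, strand setting and treatment of duplicates are not given in the sources used here. No listed gene had fewer than 6 reads in sum. No column of unmapped samples was present (0).

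Library sizes were scaled by TMM (edgeR 4.0.16, R 4.3.3; factors 0.954 and 1.05). The log2 ratio used reads plus 0.5. Counting intervals were exact Clopper-Pearson 95% intervals, with delta-method intervals for balances and for steps between levels. They cover counting error only, since PCR copies were not identified. A count of 0 allows up to 3 reads (0.243 and 0.214 CPM). For widened intervals reads were divided by the overdispersion, the squared robust SD of log2 ratios over the median counting variance. It was taken from genes of like abundance, never below the value of genes with 800 to under 1600 reads, and treats the typical gene as unchanged. With 1 library per group, count models (edgeR, DESeq2) leave no residual degrees of freedom and gave no test. Exon lengths, overlaps and coding sequences came from GENCODE M21 (GRCm38), another build than the counts, and length and GC content matched 99.6% of listed genes. Python 3.11.15, numpy 2.4.6, scipy 1.17.1 and pandas 2.3.3 were used. The intervals were run on simulated data with reads independent or clumped alike for all genes, unlike the data here. That run does not show how well the widened intervals cover these data. The 10 members, the 5 pathway lists, the marker lists and the settings were chosen with earlier results of these data known. All members were named, and of each pathway list the 4 genes with the most reads and any with at least 400 reads past 2-fold. DESeq2 1.42.0 gave an alternative scaling.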

Additional observations from a re-analysis of the deposited data

How the results depend on the processing

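Over 5 alternatives (library totals, DESeq2 size factors, TMM without ribosomal, mitochondrial, 7SK and 7SL genes, 5 reads added, trend with length and GC content removed), the ratios of *Bcl2*, *Bcl2l1*, *Bak1*, *Bcl2l11*, *Bbc3*, *Bid*, *Bad* and *Bmf* kept their sign. *Bax* turned negative with the trend removed, and *Mcl1*, at 0.00, was negative under library totals (-0.13), DESeq2 size factors and trend removal. Library totals lowered all ratios by 0.14, so the role sums became -0.14 (anti-apoptotic), 0.16 (pore-forming) and -0.57 (BH3-only). The list medians became -0.47 (inhibitors of apoptosis), -0.62 (death receptor) and -0.23 (regulators), with 2 inhibitors past 2-fold. With at least 400 reads, 0 members were past 2-fold higher and 0 lower, as were 0 other family genes, 0 apoptosome genes and 1 death receptor gene, because fewer genes were counted. By the widened interval 0 members were higher and 0 lower. With the trend removed the medians were -0.0511 (inhibitors) and -0.29 (death receptor), the pore-forming sum was -0.0768 and the difference in balance 0.25. The 2 inhibitors past 2-fold were then *Birc2*, lower at -1.35, and *Xiap*, higher at 1.14. The cause of these shifts was not tested. The anti-apoptotic sum was -0.0709 without *Mcl1*, and the BH3-only sum 0.0325 without *Bmf* and -0.53 without *Bbc3*. The difference in balance was 0.25 with unscaled reads, -0.32 without *Bmf* and 0.12 without *Bbc3*. Leaving out *Bmf* or *Bbc3* from the balance, *Bbc3* from the sum, and the trend from the sums and balance, was chosen after the data were seen. No paired analysis was possible because each group has 1 library. The 4 members under 400 reads (*Bcl2*, *Bbc3*, *Bid*, *Bad*) had counting intervals that exclude 0, while their widened intervals, which hold spread beyond counting error, span over 8 log2 units.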

Other observations

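Among the survival genes the transcript of *Mcl1* was level in the libraries while those of *Huwe1* and *Usp9x*, which encode proteins with opposite effects on the stability of its product, had ratios of -0.72 and -0.23. With the length and GC trend removed these were -0.43 and 0.18, so the sign of *Usp9x* depended on the setting, and its widened interval (-0.97 to 0.49) included 0. Of the 17 listed regulators of the members, 9 were negative and 8 positive. *Fbxw7* was one of the positive ones, at 0.37, or 0.46 after trend removal, and its widened interval included 0. Transcript counts do not show the amount of protein.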
